A study of Mus musculus with 4 samples.

Results

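Cxcl9, Cxcl10, Cxcl11 and Ccl5 are chemokine genes whose products draw T cells into inflamed tissue and tumors, and they were followed here on 4 arrays of mouse tumor cell RNA. The 4 genes were chosen by name, out of 20089 genes with a named probe. Probes were assigned through the RefSeq accession each carries, which gave 2 probes for Cxcl9, 1 for Cxcl10 and 1 for Ccl5. No probe carried the accession that the RefSeq table pairs with Cxcl11, so 3 of the 4 genes have values and Cxcl11 was not analysed here. Probes whose accession the table does not list stayed unnamed, so this does not say that the array holds no probe for Cxcl11 or that it gave no signal.

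CXCL9, CXCL10 and CXCL11 are small secreted proteins that bind CXCR3, a receptor carried by activated T cells and natural killer cells. CCL5 (RANTES) draws T cells, monocytes and eosinophils, and CCR1 and CCR3 are among the receptors it binds. Interferon gamma (IFN-γ) signals through its receptor, JAK kinases, STAT factors and interferon regulatory factors to switch on the CXCR3 ligands. Cxcl10 and Ccl5 are also known targets of NF-κB and of the sensors of foreign nucleic acids. The Cxcl11 reading frame is disrupted in C57BL/6 mice, and the RefSeq table, built on that strain, lists the gene as a transcribed pseudogene.

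The cells were AB1-HA, a mesothelioma line of the BALB/c strain made to express the hemagglutinin of influenza virus, and LLC, the Lewis lung carcinoma line of C57BL6 origin, which the sample titles call 3LL. Each line was cultured for 24 h with vehicle or with IFN-γ, and each of the 4 groups held 1 array. No group had a replicate, so no test was run, no p-value is given, and the number of arrays limits the precision. The IFN-γ dose and whether several cultures were pooled are not given in the sources used here. On each array 57.4% to 58.2% of gene probes were well above background by the scanner's mark, and no spot was saturated. The faintest probes that carried this mark read 7.53 to 8.26 intensity units, and the 75th percentiles were 1374 to 1583.

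Of 10 mesothelial markers, 5 were well above background on the AB1-HA vehicle array and 4 on the LLC vehicle array, while Wt1, Upk3b, Upk1b, Lrrn4 and Calb2 were not on any array. With vehicle, 3 of these markers were at least 2-fold lower in LLC, among them Msln, the surface antigen mesothelin (50299 against 154 intensity units). The other 2, the keratin genes Krt8 (47.5 against 9469) and Krt18 (239 against 134098), were higher in LLC, so the list did not separate the lines in 1 direction. Of 10 lung epithelial markers, 3 were well above background on the LLC vehicle array, all faintly, and the defining genes Nkx2-1, Sftpc, Epcam and Cdh1 were not on any array. Among 13 leukocyte markers with a named probe, 5 or 6 were well above background on each array, with summed signals between 4521 and 5108. Ptprc, the pan-leukocyte antigen CD45, carried the mark on none of the 4 arrays. Itgam, Nkg7 and Cd3e carried it on all 4 by the probes used, while a second Nkg7 probe had no value in any comparison. With vehicle the probes used read 3242, 503 and 359 intensity units in AB1-HA and 3209, 508 and 292 in LLC. Csf1r, a receptor of macrophages, was the 1 leukocyte marker at least 2-fold higher with IFN-γ, in LLC (1.74 on the log2 scale, and 0.27 by another probe). Between the vehicle arrays it was lower in LLC (−2.02, and 0.29 by that other probe). Itgax, marked in LLC alone, was at least 34.6-fold higher there. No other of the 6 leukocyte markers with a value was past 2-fold, beside 15.7% of all genes lower and 16.6% higher. The part of these markers in the results below was not tested.

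The bases before the start sites of Cxcl9 and Cxcl10 are shown as a description of sequence, with no part in any comparison below. They are 250 bases of the minus strand of chromosome 5 from RefSeq (build GRCm38.p6), at chr5:92328080-92328329 for Cxcl9 and chr5:92348890-92349139 for Cxcl10. Of the 4 genes, these 2 were matched in the RefSeq promoter table. Capitals mark matches, on either strand, to 5 motifs: an interferon-stimulated response core (GAAA, any 2 bases, GAAA), the STAT motif GAS (TTC, any 3 bases, GAA), a loose NF-κB motif (GGG, any 5 bases, CC), AP-1 (TGANTCA) and the CCAAT box (CCAAT).
Cxcl9: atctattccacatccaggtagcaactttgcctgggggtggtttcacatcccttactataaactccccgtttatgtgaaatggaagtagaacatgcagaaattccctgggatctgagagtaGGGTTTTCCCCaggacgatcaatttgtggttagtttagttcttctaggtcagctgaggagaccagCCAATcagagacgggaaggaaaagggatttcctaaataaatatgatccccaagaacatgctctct
Cxcl10: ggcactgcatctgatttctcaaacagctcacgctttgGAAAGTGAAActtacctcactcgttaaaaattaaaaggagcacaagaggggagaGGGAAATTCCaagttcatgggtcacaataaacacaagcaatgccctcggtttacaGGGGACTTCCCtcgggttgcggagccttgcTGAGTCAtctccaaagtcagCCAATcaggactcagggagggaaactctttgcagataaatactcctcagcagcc

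The Cxcl10 stretch held the interferon-stimulated response core GAAAGTGAAA, which began 213 bases before the start site. It also held NF-κB matches beginning at 159, 104 and 103 bases, of which the last 2 overlap, an AP-1 match at 74 bases and a CCAAT box at 54 bases. In the Cxcl9 stretch, overlapping NF-κB matches began 130 and 129 bases before the start site and a CCAAT box lay at 65 bases. Neither stretch held a GAS match, and the Cxcl9 stretch held no response core or AP-1 match, which says only that these letters are not in this window. Over 32851 RefSeq promoters cut to the same length, 2.98% held the response core, 7.02% a GAS match, 45.8% an NF-κB match, 6.75% an AP-1 match and 33.8% a CCAAT box. A response core and an NF-κB match occurred together in 1.01%. A match is a description of sequence and not a binding site.

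**Figure D1:**
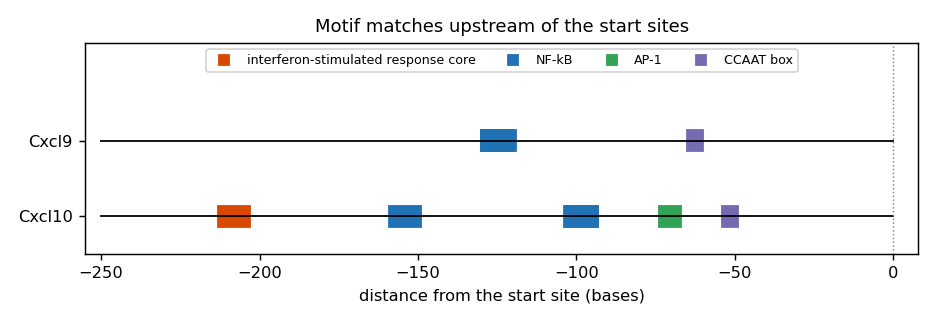
Horizontal lines are the 250 bases before the start sites of Cxcl9 and Cxcl10, with distance from the start site in bases on the x axis, and coloured boxes are motif matches on either strand. Both stretches carry NF-κB and CCAAT matches, and of the 2 the Cxcl10 stretch carries the response core, 213 bases before the start site.

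For differences between arrays, each signal was divided by the 75th percentile of its own array, and these differences are on the log2 scale. Signals in intensity units are printed before this division, so their ratios can depart from the printed folds. The ± after a signal or a difference is the scanner software's own error estimate for the single spot, carried through to the difference, and it covers neither culture nor labelling. Genes are called higher or lower from 2-fold upwards, a limit on size that says nothing about significance. Where 1 of 2 arrays lacked the background mark for a gene, the fold is a bound, written "at least", and where both lacked it no fold is given. Signals of different probes are not set against each other.

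Cxcl9 was not well above background with vehicle and was bright with IFN-γ in both lines. Its brighter probe read 1.68 intensity units on the AB1-HA vehicle array and 1.60 on the LLC vehicle array, neither well above background. With IFN-γ it read 1886 ± 189 in AB1-HA and 1190 ± 119 in LLC. Against the lowest signal marked on each vehicle array, Cxcl9 was at least 223-fold higher with IFN-γ in AB1-HA and at least 179-fold higher in LLC, or 7.80 and 7.49 on the log2 scale. These bounds hold for the scanner's background subtraction, and with normexp correction and an offset of 50 the bounds were 4.47 and 3.83. The second probe gave the same pattern, with 2.10 and 2.70 intensity units on the vehicle arrays and 1109 ± 111 and 605 ± 60.5 on the IFN-γ arrays, or bounds of at least 131-fold and 91.1-fold. The 2 probes' bounds differed by 0.77 (AB1-HA) and 0.98 (LLC) on the log2 scale, which follows the brightness of each probe, since a bound is taken from a fixed floor.

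After IFN-γ, the Cxcl9 level in LLC lay below that in AB1-HA by both probes, with log2 differences of −0.65 ± 0.20 and −0.86 ± 0.20, or 1.57-fold and 1.82-fold. Both gaps exceeded the scanner error and fell short of 2-fold. Of 20089 genes, 47 (0.234%) had the Cxcl9 pattern of marks, dim on both vehicle arrays and well above background on both IFN-γ arrays. Of these, 43 besides Cxcl9 itself had bounds above 0 in both lines. The 5 named by the rule of nearest values were Mpeg1, the pore-forming perforin-2, Ubd, the ubiquitin-like FAT10, Gbp7, Gm4841 and Apol6. Since all their gains are bounds, which follow each probe's brightness, no order or distance among them is given. A dimmer Mpeg1 probe gave bounds of 1.45 and 1.71 on the log2 scale, where the brighter one gave 8.82 and 8.85.

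Cxcl10 was measured on all 4 arrays and was higher with IFN-γ in both lines, from unlike starting levels. In AB1-HA its signal was 1424 ± 142 with vehicle and 17962 ± 1796 with IFN-γ. In LLC it was 38.1 ± 4.15 with vehicle and 12131 ± 1213 with IFN-γ. The order of levels was therefore AB1-HA with IFN-γ, LLC with IFN-γ, AB1-HA with vehicle and LLC with vehicle, each step larger than the scanner error.

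The Cxcl10 gain was 3.62 ± 0.20 (12.3-fold) in AB1-HA, rank 74 of 12680 genes measured on both AB1-HA arrays. In LLC it was 8.50 ± 0.21, the rank 5 gain of 12884 genes measured on both LLC arrays. With genes that have only a bound counted too, the Cxcl10 gain ranked 98 of 13193 in AB1-HA and 15 of 13395 in LLC. With vehicle, the Cxcl10 level in LLC minus that in AB1-HA was −5.43 ± 0.21 on the log2 scale, a 43.0-fold gap. With IFN-γ the difference was −0.55 ± 0.20, or 1.47-fold, still with AB1-HA higher. The LLC vehicle signal is faint, and values that rest on it depend on the background step: with normexp correction and an offset of 50 the LLC gain was 6.44 and the vehicle difference −3.48.

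Ccl5 stood apart from the CXCR3 ligands in AB1-HA. Its signal there was 1144 ± 114 with vehicle and 1155 ± 116 with IFN-γ, a gain of −0.02 ± 0.20. These 2 arrays could not be told apart at the scanner error, and the sign of the gain turned under cyclic loess scaling (0.05). In LLC the Ccl5 signal was 19.2 ± 4.26 with vehicle and 2418 ± 242 with IFN-γ, a gain of 7.16 ± 0.35. This was rank 11 of the genes measured on both LLC arrays, and rank 24 of 13395 with bounds counted too.

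With vehicle, the Ccl5 level in LLC minus that in AB1-HA was −6.10 ± 0.35 on the log2 scale (68.7-fold). With IFN-γ the order turned, and LLC was higher by 1.08 ± 0.20, or 2.11-fold. The size of this last gap sits near the 2-fold threshold, and it was 0.94 under array median scaling. For Ccl5 too the LLC vehicle signal is faint, and with normexp correction the LLC gain was 4.26 and the vehicle difference −3.26.

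**Figure D2:**
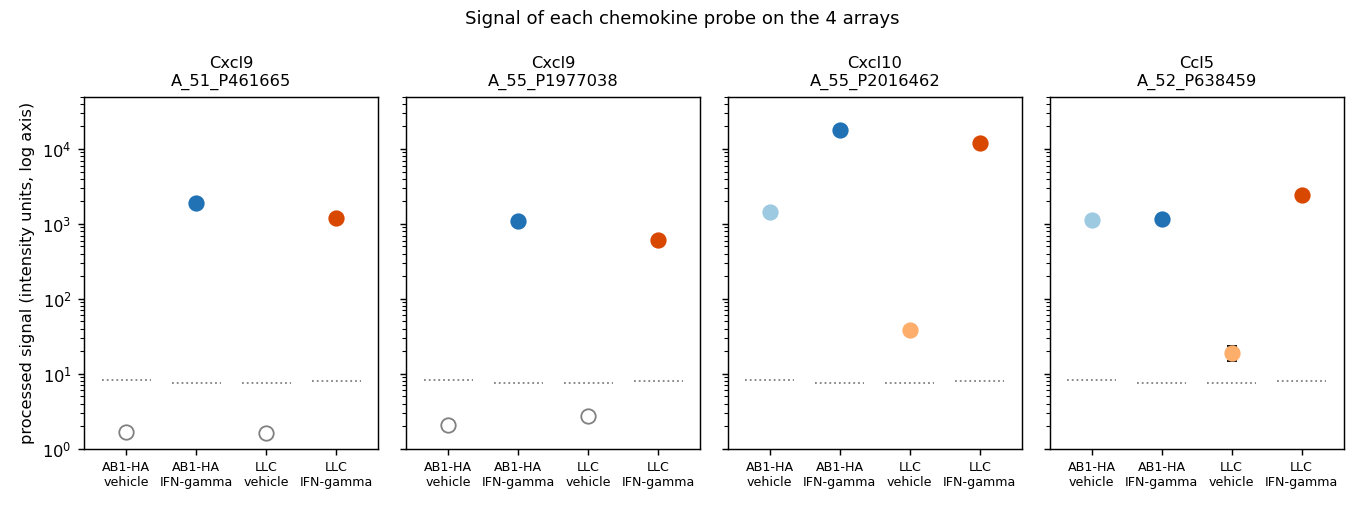
The y axis is the processed signal in intensity units on a log axis and the x axis the 4 arrays, with 1 panel per probe. Filled circles are well above background, with bars for the scanner error (mostly hidden by the circle), open circles are not, and dotted lines are the lowest signal well above background on each array (7.53 to 8.26). Cxcl9 is open on both vehicle arrays, Cxcl10 rises in both lines, and Ccl5 is level in AB1-HA (1144 and 1155) and rises in LLC (19.2 to 2418).

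Read against all genes, at least 2-fold gains were uncommon on these arrays. In AB1-HA, 2 of the 3 chemokines with values were higher with IFN-γ, where 2.99% of 13193 genes with a value were. In LLC all 3 were higher, where 3.56% of 13395 genes were. Cxcl9 has a value through its IFN-γ arrays alone and could only come out higher, so the members that could have gone either way are Cxcl10 and Ccl5, of which 1 was higher in AB1-HA and both in LLC. Neither was at least 2-fold lower, where 1.16% (AB1-HA) and 1.37% (LLC) of genes were. The median gain over all genes with a value was −0.07 in AB1-HA and −0.06 in LLC.

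**Figure D3:**
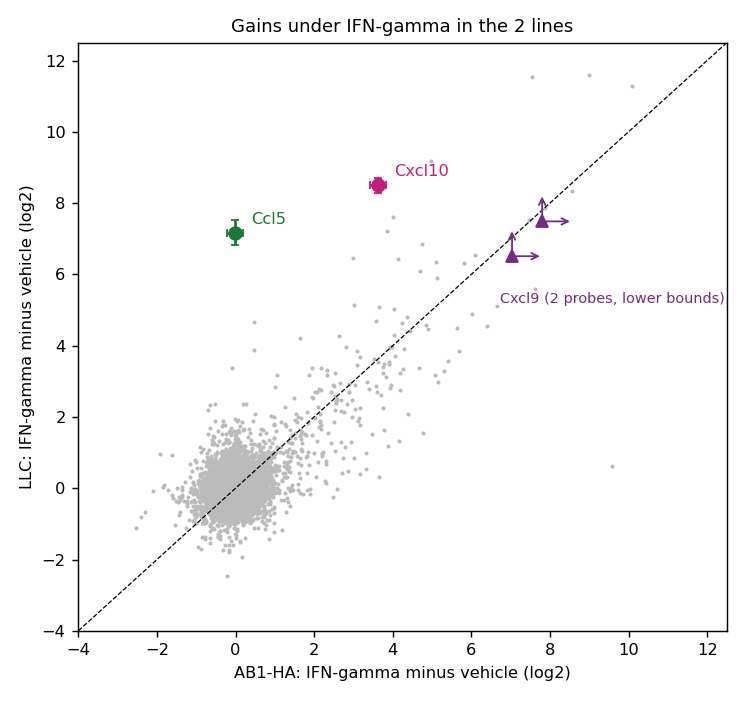
The x axis is the log2 difference between the IFN-γ and vehicle arrays in AB1-HA and the y axis that in LLC. Grey points are the 12002 genes measured on all 4 arrays, circles with bars are Cxcl10 and Ccl5 with the scanner error, and triangles with arrows are the lower bounds of the 2 Cxcl9 probes. Ccl5 lies at −0.02 and 7.16 and Cxcl10 at 3.62 and 8.50, both above the dashed line of equal gains.

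The lines were then compared for the size of their gains, which can be done for the genes measured on all 4 arrays. The gain was larger in LLC by 4.88 ± 0.30 for Cxcl10 and by 7.18 ± 0.41 for Ccl5. With normexp correction these differences were 2.95 and 4.27. At least 2-fold larger gains in LLC were found for 2.49% of 12002 genes, and Ccl5 and Cxcl10 ranked first and second with the scanner's background subtraction. Genes that lacked the mark on the LLC vehicle array are outside this ranking, however large their LLC gain. The sensor gene Zbp1, for example, gained 4.84 in AB1-HA and at least 10.27 in LLC by the probe used. Another Zbp1 probe gave 8.84 and at least 7.17. The differences of gains share the 4 arrays with the level differences above and are the same measurements arranged another way. For Cxcl9 no difference of gains can be given, since both gains are bounds.

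Between the vehicle arrays, Cxcl10 and Ccl5 were both lower in LLC, as were 15.7% of 13832 genes with a value at 2-fold or more, while 16.6% were higher. Between the IFN-γ arrays, Ccl5 was 1 of the 15.3% of 13877 genes at least 2-fold higher in LLC, and none of the 3 chemokines was among the 13.2% at least 2-fold lower. Of the 299 genes with an at least 2-fold larger gain in LLC, 174 had a vehicle level at least 2-fold higher in AB1-HA. In 126 of these 174 the IFN-γ levels of the lines lay within 2-fold, as for Cxcl10. The difference of gains is the IFN-γ level difference minus the vehicle level difference. Choosing genes by it favours low LLC vehicle levels, so these counts are in part built in by the choice. Ccl5 was the 1 gene of the 299 that was at least 2-fold higher in AB1-HA with vehicle and at least 2-fold higher in LLC with IFN-γ, a count that rests on the 1.08 above.

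**Figure D4:**
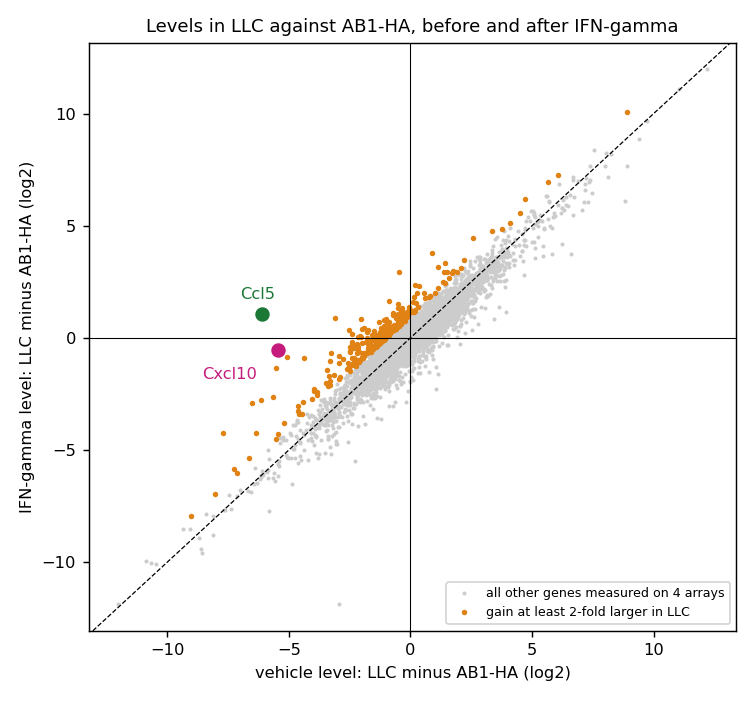
The x axis is the log2 level difference, LLC minus AB1-HA, between the vehicle arrays and the y axis that between the IFN-γ arrays, for the genes measured on all 4 arrays. Orange points have an at least 2-fold larger gain in LLC, and the dashed line marks equal differences. Cxcl10 lies at −5.43 and −0.55, near the level where the lines meet, and Ccl5 at −6.10 and 1.08, above it.

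The genes nearest to Cxcl10 over the same 3 differences, among 12001 other genes measured on all 4 arrays, were the interferon-inducible GTPase gene Ifi47 (distance 1.55), Xaf1 (2.01), Rtp4 (2.18), Apol9b (2.53) and Apol9a (2.58). Their gains were 3.85 to 4.98 in AB1-HA and 6.43 to 9.19 in LLC, a likeness that the choice by nearness builds in. With IFN-γ, Apol9b (−2.90), Apol9a (−2.78) and Rtp4 (−1.02) stayed at least 2-fold lower in LLC, where Cxcl10 was at −0.55. Ccl5 had no close neighbour: the nearest were the neuronal tubulin gene Tubb3 (3.49), the activin antagonist Fst (3.49), H2-Q8 (3.80), AA467197 (3.98) and Cxcl10 itself (4.21). Fst had gains of 0.46 in AB1-HA and 4.67 in LLC and was lower in LLC with IFN-γ (−1.32), while H2-Q8 had gains of 0.47 and 3.89 and was higher there (2.96). The Apol9 pair and H2-Q8 have near-identical relatives, so their signals are open to cross-hybridisation. A dimmer Xaf1 probe gave bounds of 2.88 and 4.64 and was higher in LLC with IFN-γ (1.43), where the probe used was lower (−0.83).

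None of the genes beside the chemokines with a value had a gain past 2-fold. Of all genes 2.99% (AB1-HA) and 3.56% (LLC) were higher, so none among so few is near the background. Around the cluster of Cxcl9, Cxcl10 and Cxcl11, 8 protein-coding neighbours and Art3, which lies between the chemokines and was added after its values were seen, had gains of −0.62 to 0.55 in AB1-HA (8 with a value) and −0.42 to 0.28 in LLC (7 with a value). The flanking genes Sdad1 (−0.06 and 0.09) and Nup54 (0.01 and −0.09) were close to 0 in both lines. Beside Ccl5 on chromosome 11, 4 of 8 neighbours had a value in AB1-HA (−0.76 to 0.22) and 3 in LLC (−0.39 to 0.42). Among them the chemokine gene Ccl9 was at −0.76 and −0.39, and Ccl3 and Ccl6 were not well above background on any array.

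Of 32 other chemokine genes, 13 had a value in AB1-HA, of which 3 were higher and 1 lower, with a median of 0.02. There Ccl7 and Ccl8 had a value through the IFN-γ array alone and could only come out higher. Ppbp had one through the AB1-HA vehicle array alone and could only come out lower. In LLC 14 had a value, of which 4 were higher and 1 lower, with a median of 0.25. Over all genes with a value, 2.99% were higher and 1.16% lower in AB1-HA, and 3.56% and 1.37% in LLC. Ccl2, the monocyte attractant MCP-1, had gains of 2.76 in AB1-HA and 2.15 in LLC, the largest among those measured on both arrays of a line, while Ccl7 and Ccl8 had only bounds in AB1-HA (1.52 and 1.20). Unlike Cxcl10 and Ccl5, it was 6.20 higher in LLC than in AB1-HA on the log2 scale with vehicle, at 13458 against 159 intensity units. Ccl17, a ligand of CCR4 on T cells, was lower in LLC with vehicle (−4.96), where its signal was faint at 8.69 intensity units, and had gains of 0.42 and 1.13. The platelet chemokine gene Ppbp was the 1 lower gene in both lines.

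**Figure D5:**
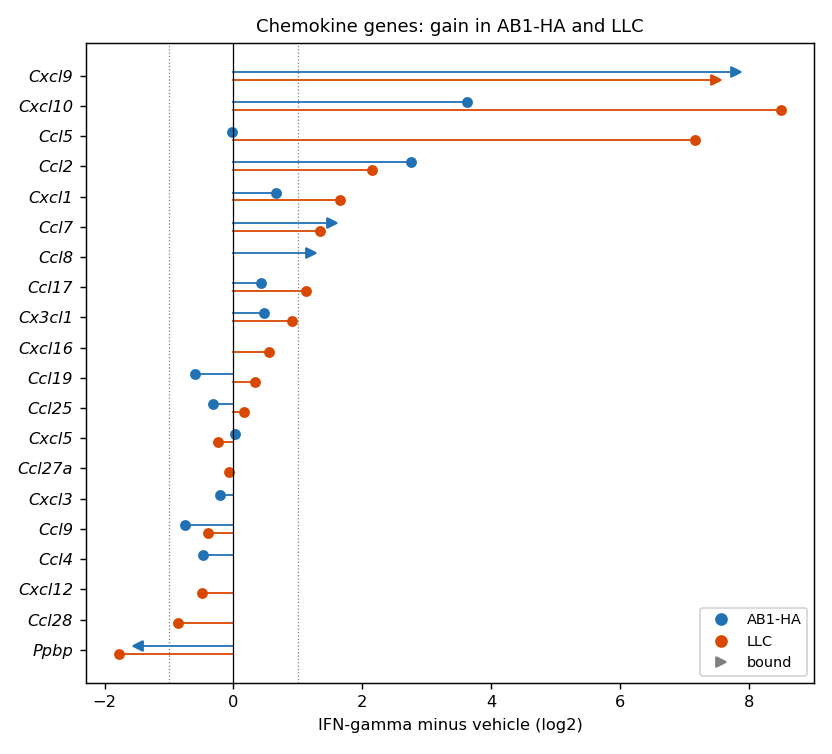
The x axis is the log2 difference between the IFN-γ and vehicle arrays for chemokine genes with a value in at least 1 line, in blue for AB1-HA and orange for LLC. Arrowheads are bounds and dotted lines mark 2-fold. Past 2-fold on the higher side lie Cxcl9 and Cxcl10 in both lines, Ccl5 in LLC (7.16) and, with smaller gains, Ccl2, Cxcl1, Ccl7, Ccl8 and Ccl17 in at least 1 line.

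Among receptors of these chemokines, Cxcr3, Ccr1 and Ccr3 and the decoy receptors Ackr1 and Ackr2 were not well above background on any array. Ackr3, an atypical receptor that binds CXCL11 and CXCL12, was measured on all 4 arrays, at 585 and 456 intensity units in AB1-HA and 2396 and 2207 in LLC (vehicle, then IFN-γ), with gains of −0.39 and 0.07. Dpp4, the protease that trims CXCL10 and CCL5 at their amino ends, and Mmp2 and Mmp9 were not well above background on any array.

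Of 12 genes for the IFN-γ receptor, its kinases and interferon transcription factors, 5 of 11 with a value were higher in AB1-HA (median 0.87) and 6 of 12 in LLC (median 0.91), beside the 2.99% and 3.56% of all genes. Irf5 in AB1-HA and Irf7 in LLC had a value through the IFN-γ array alone and could only come out higher. Irf1, an early factor of the IFN-γ response, had gains of 4.45 and 4.42 and a vehicle difference of 0.24 (a dimmer Irf1 probe gave bounds of 3.24 and 1.60). Irf7, a factor of the antiviral response that acts on Ccl5, was 2.70 higher with IFN-γ in AB1-HA and at least 34.6-fold higher in LLC. With vehicle Irf7 was at least 41.7-fold lower in LLC than in AB1-HA, and Irf9 was 2.80-fold lower. Irf8 and Irf5 went the other way, at least 136-fold and 22.2-fold higher in LLC. Irf7, Irf8 and Irf5 could each come out in that direction only, since 1 line lacked the mark. With 2 of 12 genes lower and 2 higher, the list was near the 15.7% and 16.6% of all genes. Irf8, a factor of myeloid cells, was not well above background in AB1-HA and gained 2.02 in LLC, from 1296 to 4620 intensity units.

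Among 9 NF-κB genes, the inhibitor-like Nfkbiz was the 1 higher gene of 8 with a value in each line (1.45 and 1.04), beside 2.99% and 3.56% of all genes, and the medians were 0.21 and 0.36. Rela, Nfkb1 and Relb lay between −0.12 and 0.38 in both lines. Between the vehicle arrays, Nfkb2 was lower in LLC (−1.16) and Nfkbiz higher (2.40), each 1 of 8 genes, beside 15.7% and 16.6% of all genes. The Nfkbiz signal was faint with vehicle in AB1-HA, at 11.9 intensity units, and both its AB1-HA gain and its vehicle difference rest on that signal. A second probe of Nfkbib, the inhibitor IκBβ, was lower in LLC (−2.68), where the probe used had −0.12.

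Of 8 genes that hold these chemokines back, 2 were higher in each line, beside the same 2.99% and 3.56%: the JAK inhibitor Socs1 (2.68 and 2.49) and Zfp36, which speeds decay of cytokine transcripts (1.26 and 1.81). The Polycomb genes Ezh2, Eed and Suz12, whose complex is known to silence the CXCR3 ligand genes in some tumors, lay between −0.13 and 0.21 in both lines and differed by at most 0.32 between the lines with vehicle. The DNA methyltransferase gene Dnmt1 was at 0.02 in AB1-HA and −0.42 in LLC, and 0.96 higher in LLC with vehicle. Socs3, another inhibitor of JAK signalling, was the 1 gene of the list past 2-fold between the lines, higher in LLC by 1.07 with vehicle and 1.29 with IFN-γ. Of all genes 16.6% and 15.3% were higher there, so 1 of 8 is no more than the background.

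Of 8 sensor and cytokine genes with a value between the vehicle arrays, 3 were at least 2-fold lower in LLC, beside 15.7% of all genes, and 1, the kinase gene Ikbke (1.19), was higher, beside 16.6%. Ddx58, Mavs, Tbk1 and Sting1 lay within 2-fold. Zbp1, which senses Z-form DNA and RNA, was at least 290-fold lower in LLC, although another of its probes gave a bound of 1.83-fold. The cytosolic DNA sensor gene Cgas was 70.6-fold lower (3166 against 51.6 intensity units), where 2 dimmer probes gave bounds of 2.25 and 3.43 on the log2 scale. The RNA sensor gene Ifih1, for MDA5, was at least 28.1-fold lower by 1 probe, and another had no value there. Cgas had gains of 0.23 and 0.25, while Zbp1, Ifih1 and Ddx58 (RIG-I) were higher with IFN-γ in both lines by the probes used. The other Ifih1 probe gave a bound of 0.95 in AB1-HA, short of 2-fold, and no value in LLC. By the probes used, Zbp1 and Ifih1 lacked the mark on the LLC vehicle array. They could only come out lower there, and only higher with IFN-γ in LLC. The cytokine genes Tnf, Il1a and Il1b were not well above background on any array, and Ifnb1 was marked on 1 array alone, AB1-HA with IFN-γ, at 8.25 intensity units. Whether these differences take part in the Ccl5 and Cxcl10 levels was not tested.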

How the data were processed

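RNA of 2 lines, each with vehicle or IFN-γ, was measured on 4 1-colour (Cy3) Agilent mouse arrays. The deposited intensity values come from the scanner software, Feature Extraction 10.7.1.1 per the file headers, with background subtracted spot by spot and no scaling across arrays (per the submitters' processing notes, version 10.7). The authors also deposited a log2 value table, with its processing not given in the sources used here. Its columns, with medians of 0.11 and −0.08 (AB1-HA, vehicle and IFN-γ) and −0.13 and 0.08 (LLC), had correlations that round to 1.0 with percentile-scaled log2 signals centred on probe medians, so its scale and direction were taken as those.

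Control spots and outlier-marked spots were left out, with 116 of 39429 gene probes that then lacked a spot on some array. Signals were scaled to the 75th percentile. Accessions without versions were matched to a RefSeq table (GRCm38.p6, names only), naming 26493 probes, and the probe brightest over 4 arrays stood for a gene. Genes named were the members, fixed lists, neighbours and the 5 nearest in pattern. Members and lists were chosen with earlier results of these data known. Alternatives were other scalings, normexp, the authors' table, background filters, probe means and outlier spots kept. Calls were run on simulated data with planted changes past 2-fold in marked probes and little noise. That run checks the calculation alone and says nothing about faint signals, values near the threshold or differences between cultures. One listed gene is not reported here. Python 3.11.15, R 4.3.3 and limma 3.58.1 were used.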

Additional observations from a re-analysis of the deposited data

Results flagged for a closer look

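The Ccl5 gain was −0.02 in AB1-HA and 7.16 in LLC, which drew attention because the 2 values lie on either side of 0. The AB1-HA value lies within the scanner error of 0.20 and was 0.05 under cyclic loess, so it has no settled sign. The difference between the lines was not tested because each group held 1 array.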

How the results depend on the processing

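No paired analysis was possible because each group held 1 array and the labels give no replicate numbers. Over 104 recomputed values of the 3 chemokines, 91 stayed within the scanner error of the main value, 13 did not, and no called value changed sign. Part of the 91 could not move. Cxcl10 and Ccl5 have 1 probe each, marked on every array, so probe means and the dropped background filter return their main values. The authors' table closely tracks the percentile-scaled signals, so it is hardly a separate check. The count of 91 is therefore no measure of robustness.

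Normexp correction, with its offset of 50, moved the values that rest on dim vehicle signals. It gave bounds of 4.47 (Cxcl9, AB1-HA) and 3.83 (Cxcl9, LLC), and gains of 6.44 (Cxcl10, LLC) and 4.26 (Ccl5, LLC). It gave vehicle differences of −3.48 (Cxcl10) and −3.26 (Ccl5) and differences of gains of 2.95 and 4.27. Without a background filter the Cxcl9 gains were 10.10 and 9.72, and with the mean over its probes the bounds were 7.42 and 6.998. Array median scaling gave a bound of 7.34 for Cxcl9 in LLC.

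Counts over all genes moved more. Higher genes in AB1-HA, LLC and the difference of gains were 395, 477 and 299. They were 257, 253 and 130 under normexp, 725, 882 and 1370 without a filter, and 215, 190 and 34 at 4-fold. Lower genes were 153, 183 and 217. They were 20, 20 and 75 under normexp, 581, 491 and 907 without a filter, and 10, 10 and 26 at 4-fold. Array median scaling gave 315 lower genes in LLC and 332 lower differences of gains. It took the higher share of the genes past 2-fold from 72.3% to 55.1% in LLC and from 57.9% to 37.6% for the difference of gains, and quantile normalization gave 60.7% and 47.0%. Between the vehicle arrays, 2295 higher and 2173 lower genes became 1491 and 1403 under normexp and 1130 and 817 at 4-fold. Between the IFN-γ arrays, 2125 higher genes became 1352 under normexp and 1058 at 4-fold, and 1834 lower became 770 at 4-fold. The cause of these moves was not tested, other than the 4-fold threshold's own construction. Signal over background limits the LLC vehicle values.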
